A study of Drosophila melanogaster with 12 samples.

Results

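The vesicle trafficking and synaptic fusion genes were taken as all probes whose single annotated gene has a current symbol of Rab, Syt, Syx, Vps, Snx, Snap or Vamp followed by a number. The rule found 45 of the 13824 probes on the array, naming 42 genes, where the current annotation holds 84 genes whose symbols fit it. They comprised 14 probes of 12 Rab genes, 4 probes of 4 fusion genes (Snap29, Syt12, Syt14 and Vamp7) and 27 probes of 26 endosomal sorting genes. Rab27, Rab35 and Snx1 had 2 probes each, and Rab3-GAP, which fits the rule by its symbol, is a regulator and not a GTPase. RNA from the heads of unmated Oregon-R male flies, 3 to 4 days old at the start, was hybridised to 12 cDNA arrays, with treated and untreated RNA in different colours. All treated flies had first eaten 8 mg/ml pentylenetetrazole (PTZ), a convulsant, for 7 days. In the group PTZ-ETH_10 they then ate 3.48 mg/ml ethosuximide (ETH), an antiepileptic drug, for 3 days and were harvested on day 10. In PTZ-ETH-NF_14 they ate the same ETH food for 3 days and normal food (NF) for 4 days, with harvest on day 14. In PTZ-NF-NF_14 they ate normal food for 7 days after PTZ, also with harvest on day 14. Each array compared them with head RNA from a parallel set of flies kept on normal food, called untreated here. Each group had 4 arrays, each with its own pools of frozen heads, and replicates 3 and 4 were dye swaps.

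Rab GTPases are molecular switches that mark membranes and recruit the motors, tethers and regulators that move a vesicle to its target. SNARE proteins such as Snap29 and Vamp7 then draw the membranes together, while synaptotagmins act at regulated fusion steps, most of them as calcium sensors. After endocytosis, ESCRT complexes (Vps37B, Vps36, Vps20, Vps24, Vps60, with the ATPase Vps4) sort cargo into multivesicular bodies, and retromer (Vps26, Vps29, Vps35) with sorting nexins retrieves cargo from endosomes. The GARP complex (with Vps51, Vps52 and Vps53) and the HOPS subunits Vps16A and Vps39 tether endosomal carriers to the Golgi or the lysosome. The EARP complex shares these GARP subunits and holds Vps50. In neurons these routes feed the synaptic vesicle cycle and clear used membrane proteins.

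Values are log2 ratios of treated over untreated, with each array's median over all probes set to 0. The sources used here do not state whether the ratios of the dye swaps were deposited already turned, so the direction is not settled. The values below take the ratio as Cy5 over Cy3 and turn the dye swaps in sign. Counts of calls, class medians and the ratios of the leading members are also given without turning, while values of single arrays stand as turned unless stated otherwise. Whole heads were measured, so fewer cells of a type and less RNA per cell cannot be told apart. The arrays give ratios and no levels, so the head label could not be checked against cell type markers. On the array were 3 of 13 listed neuron markers and 9 of 12 listed glia markers, and all of these were tested at day 10. So were 7 of 7 photoreceptor, 8 of 9 fat body and 5 of 6 muscle marker genes on the array, so giving a value cannot tell the tissue. Testing needed values on 3 or more of a group's 4 arrays, and used limma with Benjamini-Hochberg adjustment over all probes tested and a threshold of 0.05 on the adjusted p. The fit includes a dye term, so an SE can be smaller than the raw spread of the arrays: Vps53 at day 10 had an SE of 0.19 and an SD of 1.09 over 4 arrays.

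Members had values on fewer arrays at day 14. Between 34 and 38 of the 45 member probes had a value on an array of PTZ-ETH_10, between 20 and 31 in PTZ-ETH-NF_14 and between 31 and 33 in PTZ-NF-NF_14. Over all single-gene probes the shares were 77.5% to 89.0%, 41.4% to 61.0% and 56.4% to 61.3% in the same 3 groups. Of the member probes, 8 had a value on all 12 arrays, and 6 had too few values to be tested in any group, namely Rab27 probe 1, Syt14, Vps15, Vps16B, Vps45 and Vps8. The tested members are those that gave a signal on at least 3 arrays, so counts over them do not describe all 45.

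**Figure D1:**
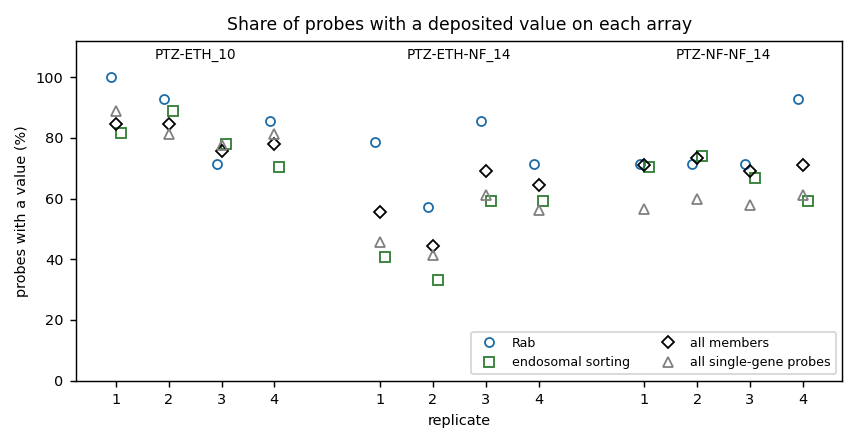
Percent of probes with a deposited value (y axis) on each of the 12 arrays (x axis, replicate within group), for Rab probes, endosomal sorting probes, all 45 members and all single-gene probes. Between 34 and 38 of the 45 members had a value on each PTZ-ETH_10 array, and as few as 20 on 1 PTZ-ETH-NF_14 array.

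With the dye swaps turned and all 12 arrays in the fit at equal weight, no member passed the threshold in any of the 3 groups. In PTZ-ETH_10, 0 of 34 tested members passed, where 0.222% of all 9479 tested probes did, and 0 had an unadjusted p under 0.05, where 8.34% of all probes did. In PTZ-ETH-NF_14, 0 of 22 passed, where 0% of 5135 probes did, and 1 (Rab2) had an unadjusted p under 0.05, where 4.4% of all probes did. In PTZ-NF-NF_14, 0 of 30 passed, where 0% of 6386 probes did, and 2 (Rab2 and Snx1 probe 1) had an unadjusted p under 0.05, where 6.69% of all probes did. Fitted on the arrays of PTZ-NF-NF_14 alone, 8 of 30 members had an unadjusted p under 0.05, where 1418 of 6386 probes did. In that fit 1 member (Snx1 probe 1, with values on 3 arrays) passed, where 68 probes passed as higher and 207 as lower. Without turning the dye swaps, 0 members passed in PTZ-ETH-NF_14, where 0.331% of probes did, and 0 in PTZ-NF-NF_14, where 0.204% did; PTZ-ETH_10 is described further on. Their median log2 ratio was 0.065 in PTZ-ETH_10, 0.0012 in PTZ-ETH-NF_14 and 0.066 in PTZ-NF-NF_14, against 0.019, 0.0034 and -0.0078 over all probes tested in the same groups. Above 0 were 24 of 34, 11 of 22 and 18 of 30 members, where 53.7%, 50.9% and 48.4% of all probes were above 0. Both measures depended on turning. Without it the members' medians were -0.15, -0.0685 and 0.014, against 0.0015, -0.0079 and 0.0034 over all probes. Above 0 were then 13 of 34, 9 of 22 and 15 of 30 members, where 50.2%, 48.3% and 50.9% of all probes were, and 17, 8 and 11 members changed sign between the readings.

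**Figure D2:**
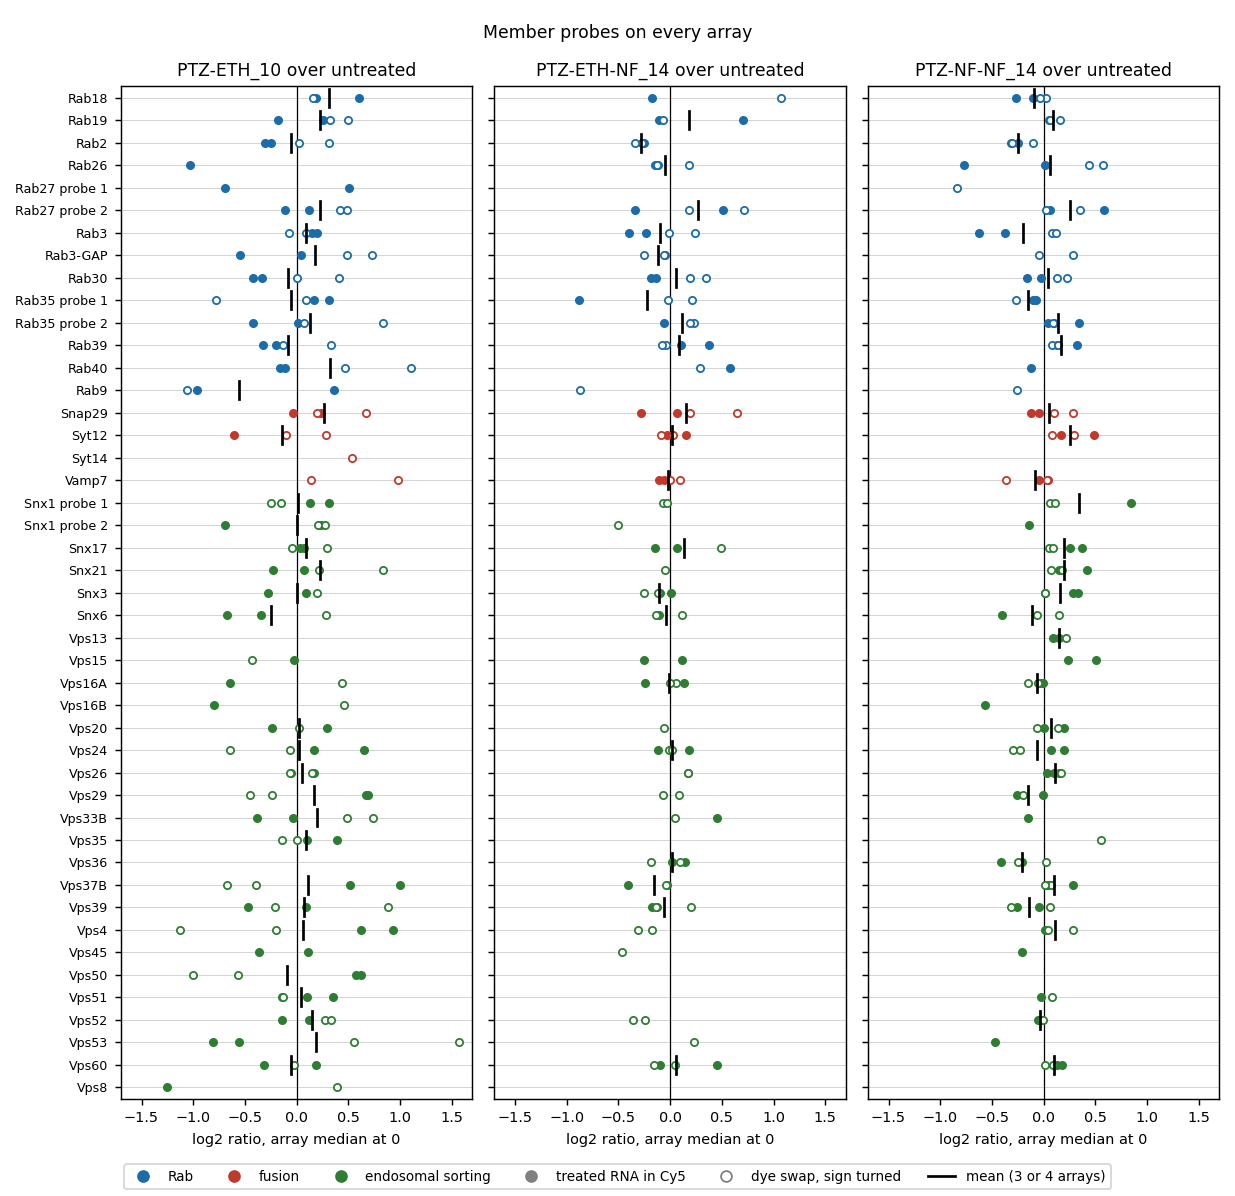
Log2 ratio of treated over untreated (x axis, array median at 0) for each of the 45 member probes (rows) in the 3 groups (panels). Filled points are arrays with the treated RNA in Cy5, open points are dye swaps with the sign turned, and black bars are means of 3 or 4 arrays. In the PTZ-ETH_10 panel filled and open points often lie on opposite sides of 0, as for Vps4 and Vps50, and on the day 14 panels they lie closer together.

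Among the Rab genes, Rab2 had the lowest unadjusted p in both day 14 groups. Rab2 acts between the endoplasmic reticulum and the Golgi and in delivery to lysosomes. In PTZ-ETH-NF_14 it read -0.25, -0.27, -0.28 and -0.34 on replicates 1 to 4, below 0 on each array. In PTZ-NF-NF_14 it read -0.25, -0.32, -0.31 and -0.10, again below 0 on each. In PTZ-ETH_10 it read -0.25 and -0.30 on the arrays with treated RNA in Cy5 and 0.025 and 0.31 on the dye swaps, so the orientations lay on opposite sides of 0. The fitted log2 ratio was -0.28 ± 0.10 (SE, n = 4 arrays, limma, unadjusted p = 0.0144, adjusted p = 0.998) in PTZ-ETH-NF_14. It was -0.24 ± 0.10 (SE, n = 4 arrays, limma, unadjusted p = 0.0345, adjusted p = 0.726) in PTZ-NF-NF_14 and -0.054 ± 0.11 (SE, adjusted p = 0.924) in PTZ-ETH_10. Rab2 thus did not pass in any group, and without turning the dye swaps its ratios were 0.024, -0.039 and -0.22 in PTZ-ETH-NF_14, PTZ-NF-NF_14 and PTZ-ETH_10. With print blocks of the slide centred on their own medians, replicate 2 of Rab2 was above 0 in both day 14 groups, at 0.11 in PTZ-ETH-NF_14 and 0.08 in PTZ-NF-NF_14. The unadjusted p was then 0.0303 and 0.0673, and 0.0889 and 0.57 with a running median over neighbouring probes removed.

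Rab27 and Rab3 had arrays on both sides of 0 in at least some groups. Rab27, a regulator of secretory granule and lysosome-related organelle exocytosis, read 0.52, -0.34, 0.72 and 0.18 at its second probe in PTZ-ETH-NF_14. The same probe read 0.59, 0.062, 0.35 and 0.02 in PTZ-NF-NF_14 and 0.12, -0.11, 0.42 and 0.48 in PTZ-ETH_10. It was thus above 0 on all 4 arrays only in PTZ-NF-NF_14 (0.25 ± 0.15, SE, limma, adjusted p = 0.811), and its 1 replicate below 0 was replicate 2 in each of the other groups. Rab27 probe 1 had 3 values in all, 0.51 and -0.69 in PTZ-ETH_10 and -0.84 in PTZ-NF-NF_14, and was not tested. Rab3, the Rab of synaptic vesicles, read -0.62 and -0.38 on replicates 1 and 2 of PTZ-NF-NF_14 and 0.076 and 0.12 on the dye swaps. Its fitted ratio there was -0.20 ± 0.12 (SE, limma, adjusted p = 0.811), with the orientations on opposite sides of 0. In PTZ-ETH_10 Rab3 read 0.20, 0.15, 0.087 and -0.076. In PTZ-ETH-NF_14 it read -0.23, -0.40, -0.011 and 0.24.

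At day 10 the Rab ratios ran from -0.68 to 0.36, with 7 of 12 tested probes above 0 and a median of 0.11. Rab9, which returns cargo from late endosomes to the Golgi, was lowest, with -0.96, 0.36 and -1.06 on replicates 1, 2 and 4 (fitted -0.68 ± 0.28, SE, n = 3 arrays, limma, adjusted p = 0.591). Its replicate 2 lay on the other side of 0 from the rest. Rab18, known in other animals for its place on the endoplasmic reticulum and lipid droplets, read 0.60, 0.19 and 0.16 on replicates 1, 2 and 4 (0.36 ± 0.20, SE, n = 3 arrays, limma, adjusted p = 0.652). Rab40, a Rab with a SOCS box that joins a ubiquitin ligase, read -0.11, -0.16, 0.47 and 1.10, so only its dye swaps were above 0 (0.32 ± 0.19, SE, n = 4 arrays, limma, adjusted p = 0.681). Rab19 read 0.71 on replicate 2 of PTZ-ETH-NF_14 and -0.10 and -0.067 on replicates 1 and 3, so 1 array held the value up (0.19 ± 0.17, SE, n = 3 arrays, limma, adjusted p = 0.998). The Rab medians at day 14 were 0.0022 over 10 tested probes of PTZ-ETH-NF_14, of which 5 were above 0, and 0.053 over 10 of PTZ-NF-NF_14, of which 6 were above 0. Both medians were below 0 without turning the dye swaps, at -0.10 and -0.021 with 4 of 10 above 0 in each, and with the running median removed, at -0.035 and -0.026. At day 10 the Rab median was -0.20 without turning, with 4 of 12 above 0. Rab27 probe 2 was at -0.18, 0.070 and -0.22 without turning in PTZ-ETH-NF_14, PTZ-NF-NF_14 and PTZ-ETH_10. In the same reading Rab3 was at -0.30 in PTZ-NF-NF_14, Rab19 at 0.17 in PTZ-ETH-NF_14, and Rab9 and Rab18 at 0.38 and 0.16 in PTZ-ETH_10. With turning and no correction for slide position, the probes of Rab35, which acts in endocytic recycling, disagreed in sign in each group. Probe 1 then had fitted ratios of -0.052, -0.22 and -0.15 in PTZ-ETH_10, PTZ-ETH-NF_14 and PTZ-NF-NF_14, and probe 2 had 0.13, 0.072 and 0.14. Without turning both were mostly below 0 in PTZ-ETH-NF_14. On replicates 1, 3 and 4, probe 1 read -0.88, 0.0175 and -0.22 and probe 2 read -0.063, -0.23 and -0.19.

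**Figure D3:**
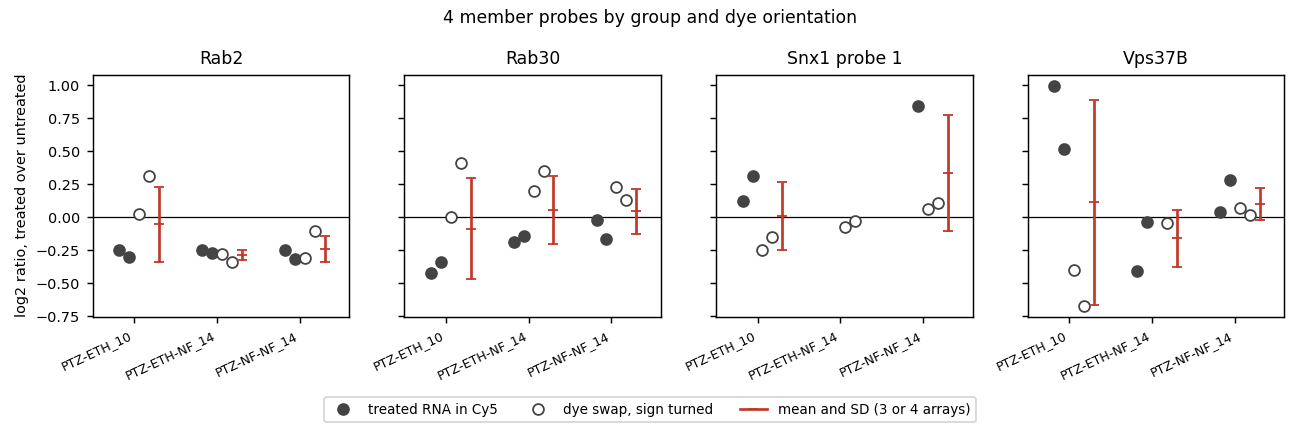
Log2 ratio of treated over untreated (y axis) for Rab2, Rab30, Snx1 probe 1 and Vps37B on each array of the 3 groups (x axis). Filled points have the treated RNA in Cy5, open points are dye swaps with the sign turned, and red marks are the mean and SD of 3 or 4 arrays. Without correction for slide position Rab2 lies below 0 on all 8 day 14 arrays, and Rab30 has its filled points below 0 and its open points above 0 in each group.

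The fusion genes gave 2 tested probes at day 10 and 3 in each day 14 group. Snap29, a SNARE that acts in fusion of autophagosomes with lysosomes, read 0.24, -0.034, 0.20 and 0.67 in PTZ-ETH_10. It read 0.069, -0.28, 0.65 and 0.19 in PTZ-ETH-NF_14 and -0.044, -0.12, 0.29 and 0.10 in PTZ-NF-NF_14. Replicate 2 was the lowest array of Snap29 in each group. Its fitted ratios were 0.27 ± 0.13 (SE, n = 4 arrays, limma, adjusted p = 0.591), 0.16 ± 0.12 (adjusted p = 0.998) and 0.055 ± 0.12 (adjusted p = 0.942) in the same order of groups. Without turning they were -0.17, -0.26 and -0.14, and none passed. Syt12, a synaptotagmin that in mammals lacks calcium binding, read 0.49, 0.17, 0.29 and 0.077 in PTZ-NF-NF_14, above 0 on each array (0.26 ± 0.13, SE, n = 4 arrays, limma, adjusted p = 0.782). It read 0.15, -0.035, -0.092 and 0.029 in PTZ-ETH-NF_14, on both sides of 0. In PTZ-ETH_10 it had 3 values, -0.61, 0.28 and -0.099 on replicates 1, 3 and 4 (-0.16 ± 0.16, SE, limma, adjusted p = 0.835). Vamp7, a SNARE of late endosomes and lysosomes, read -0.064, -0.11, -0.0055 and 0.099 in PTZ-ETH-NF_14. It read 0.046, -0.046, -0.37 and 0.033 in PTZ-NF-NF_14, so replicate 3 alone lay far from 0. In PTZ-ETH_10 Vamp7 gave values on the dye swaps alone, 0.98 and 0.14, and Syt14 gave 1 value in all, 0.53 on replicate 4 of that group, so neither was tested at day 10. The median ratio of the fusion genes was 0.055, 0.014 and 0.055 in PTZ-ETH_10, PTZ-ETH-NF_14 and PTZ-NF-NF_14, and -0.21, -0.066 and 0.073 without turning. Syt12 was then at -0.25, 0.045 and 0.073 in the same order of groups.

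With turning, 16 of 20 tested probes of endosomal sorting genes were above 0 in PTZ-ETH_10, where 53.7% of all probes were, with a median of 0.054 and a range from -0.17 to 0.22. Without turning 9 of 20 were above 0, where 50.2% of all probes were, with a median of -0.0205 and a range from -0.87 to 0.72. With turning and a running median over neighbouring probes removed, 12 of 20 were, where 51.9% of all probes were. In PTZ-ETH-NF_14, 4 of 9 were above 0 with a median of -0.011, and in PTZ-NF-NF_14, 10 of 17 with a median of 0.10. Without turning these were 4 of 9 with a median of -0.043 and 9 of 17 with a median of 0.0304. Among the sorting nexins, Snx1, a retromer-associated membrane-bending protein, had the lowest p of all members. Its first probe read 0.84, 0.065 and 0.11 on replicates 2, 3 and 4 of PTZ-NF-NF_14, so 1 array carried most of the mean. The fitted ratio was 0.43 ± 0.12 (SE, n = 3 arrays, limma, unadjusted p = 0.00487, adjusted p = 0.539). It passed in the limma fit on the arrays of the group alone (0.46, n = 3 arrays, adjusted p = 0.0208). In that fit 68 of 6386 probes passed as higher and 207 as lower. Replicate 2 was its only value there with treated RNA in Cy5, so the dye term fitted that array exactly. The p of that fit therefore does not measure how far replicate 2 lay from the dye swaps. With array weights Snx1 probe 1 also passed (0.44, limma, adjusted p = 0.0271), where 28 and 94 probes did. In the other fits it did not pass. The second Snx1 probe had 1 value in that group, -0.14 on replicate 1. Snx17, which in mammals returns receptors to the cell surface, read 0.26, 0.37, 0.054 and 0.094 in PTZ-NF-NF_14, above 0 on each array (0.19 ± 0.12, SE, n = 4 arrays, limma, adjusted p = 0.811). In PTZ-ETH-NF_14 it read -0.14, 0.063 and 0.49 on replicates 1 to 3 (0.15 ± 0.14, SE, n = 3 arrays, limma, adjusted p = 0.998). Snx3, which with retromer retrieves the Wnt carrier Wntless, read -0.094, 0.013, -0.12 and -0.25 in PTZ-ETH-NF_14 (-0.11 ± 0.11, SE, n = 4 arrays, limma, adjusted p = 0.998). Snx21 read 0.072, -0.22, 0.22 and 0.84 in PTZ-ETH_10, with replicate 4 high (0.22 ± 0.16, SE, n = 4 arrays, limma, adjusted p = 0.748). Without turning, Snx1 probe 1 was at 0.29 in PTZ-NF-NF_14, Snx17 at 0.12 there and -0.245 in PTZ-ETH-NF_14, Snx3 at 0.071 in PTZ-ETH-NF_14 and Snx21 at -0.30 in PTZ-ETH_10, and none passed.

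Of the ESCRT genes, the ESCRT-II subunit Vps36 gave no value in PTZ-ETH_10. It read -0.41, -0.21, -0.25 and 0.028 in PTZ-NF-NF_14 (-0.21 ± 0.11, SE, n = 4 arrays, limma, adjusted p = 0.793) and 0.016, 0.14, -0.18 and 0.097 in PTZ-ETH-NF_14. Vps37B, an ESCRT-I subunit, read 0.997, 0.52, -0.40 and -0.67 in PTZ-ETH_10, with the orientations on opposite sides of 0. It read -0.41, -0.033 and -0.041 on replicates 1, 2 and 4 of PTZ-ETH-NF_14 (-0.24 ± 0.21, SE, n = 3 arrays, limma, adjusted p = 0.998), so replicate 1 was the low array. Of the retromer core, Vps29 read 0.69, 0.67, -0.45 and -0.24 in PTZ-ETH_10 (0.17 ± 0.15, SE, n = 4 arrays, limma, adjusted p = 0.806). Vps26 had its 4 values between 0.036 and 0.17 in PTZ-NF-NF_14 (0.11 ± 0.098, SE, limma, adjusted p = 0.852). Vps35 was tested at day 10 only (0.09 ± 0.13, SE, limma, adjusted p = 0.892). Of the GARP subunits, Vps52 read -0.14, 0.12, 0.27 and 0.34 in PTZ-ETH_10 (0.15 ± 0.11, SE, n = 4 arrays, limma, adjusted p = 0.761). In PTZ-NF-NF_14 all its values lay between -0.058 and -0.005, the smallest spread of a tested member in that group (SD 0.022, n = 4 arrays). Without turning, Vps36, Vps26 and Vps52 were at -0.0998, -0.044 and -0.015 in PTZ-NF-NF_14, and Vps37B was at -0.15 in PTZ-ETH-NF_14.

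The day 14 groups did not differ in any member past the threshold. Of 21 members tested in PTZ-ETH-NF_14 minus PTZ-NF-NF_14, 0 passed, where 0% of 4766 probes did, and 0 had an unadjusted p under 0.05, where 1.64% of all probes did. The 3 lowest unadjusted p belonged to Snx3, Vps36 and Syt12. The difference in log2 ratio was -0.27 ± 0.15 for Snx3, 0.23 ± 0.16 for Vps36 and -0.24 ± 0.18 for Syt12 (SE, 4 arrays a group, limma, adjusted p = 1 for each). Snx3 had read 0.34, 0.28, 0.009 and 0.01 in PTZ-NF-NF_14, with its dye swaps nearer to 0 than the arrays with treated RNA in Cy5. Of 18 members tested in PTZ-ETH-NF_14 minus PTZ-ETH_10, 0 passed, where 0.0449% of 4451 probes did, and 0 had an unadjusted p under 0.05, where 5.77% did. The lowest p belonged to Rab3-GAP, Rab2 and Vps37B, with differences of -0.38 ± 0.24, -0.23 ± 0.15 and -0.35 ± 0.28 (SE, limma, adjusted p = 0.918, 0.918 and 0.969). Rab3-GAP, a subunit of the complex that switches Rab3 off, read -0.046, -0.063 and -0.26 on replicates 2 to 4 of PTZ-ETH-NF_14, against 0.041, -0.55, 0.49 and 0.73 in PTZ-ETH_10. Its day 10 values alone spanned both sides of 0. Without turning, 0 members passed in the first difference, where 0% of probes did. In the second, 2 passed, where 9.66% of probes did: Vps37B at -0.79 ± 0.18 (SE, limma, adjusted p = 0.0169) and Rab35 probe 1 at -0.71 ± 0.21 (SE, limma, adjusted p = 0.0477).

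In PTZ-NF-NF_14 more of the members lay on 1 side of 0 on all 4 arrays. Of 23 members with 4 values there, 10 were above 0 on every array, where 11.2% of all such probes were, and 3 were below, where 11.5% were. Those above were Syt12, Rab27 probe 2, Rab35 probe 2, Rab39, Snx17, Snx21, Snx3, Vps26, Vps37B and Vps60, and those below were Rab2, Vps16A and Vps52. Their ratios were small and did not pass: Vps60, an ESCRT-III protein, read 0.18, 0.13, 0.088 and 0.011, and Vps16A, a core HOPS subunit, read -0.011, -0.021, -0.15 and -0.059. With each print block of the slide centred on its own median, 6 were above and 1 below, where 24.3% of probes lay on 1 side. With a running median over 49 neighbouring probes removed, 5 were above and 1 below, where 18.4% lay on 1 side. Without turning the dye swaps, 1 of the 23 was above (Vps24) and 3 were below (Snap29, Rab3 and Rab30), where 19.3% lay on 1 side. In PTZ-ETH-NF_14, 1 of 15 members lay on 1 side, Rab2 below 0, where 11% of probes lay on 1 side. In PTZ-ETH_10, 0 of 27 did, where 8.7% of probes did. A difference between the groups in these counts was not tested.

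The result for PTZ-ETH_10 depended on how the dye swaps were read. Without turning, 11 of 34 members passed, where 30.5% of all 9479 probes did, so the share of members was close to that of all probes. Of these, 5 were higher in treated flies in this reading, where 18.7% of all probes passed as higher. All 5 were endosomal sorting genes, which made up 20 of the 34 tested members. The ESCRT ATPase Vps4 had a ratio of 0.72 ± 0.15, the EARP subunit Vps50 0.69 ± 0.13, Vps37B 0.64 ± 0.12, Vps29 0.51 ± 0.12 and the ESCRT-III subunit Vps24 0.38 ± 0.12 (SE, 4 arrays each, limma, adjusted p from 0.00581 to 0.0284). The other 6 were lower in treated flies in this reading, where 11.8% of all probes passed as lower. They were the GARP subunit Vps53 at -0.87 ± 0.18, Rab40 at -0.46 ± 0.13, Rab3-GAP at -0.43 ± 0.14, Vps33B at -0.41 ± 0.12, the sorting nexin Snx6 at -0.40 ± 0.13 and the Golgi Rab Rab30 at -0.29 ± 0.099 (SE, limma, adjusted p from 0.0143 to 0.0427). Vps33B is a partner of Vps16B in endosomal fusion. With turning, the orientations of these genes mostly lay on opposite sides of 0, which follows from their having passed without it. Vps4 read 0.93 and 0.62 on replicates 1 and 2 and -1.13 and -0.20 on the dye swaps, for a fitted ratio of 0.057 ± 0.22 (SE, limma, adjusted p = 0.966). Vps50 read 0.62, 0.58, -0.56 and -0.9995, and Vps53 read -0.56, -0.81, 0.56 and 1.57. GARP and EARP share Vps51 to Vps53 and differ in Vps50, and in this reading Vps51 was at 0.18 and Vps52 at -0.16, neither of which passed.

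**Figure D4:**
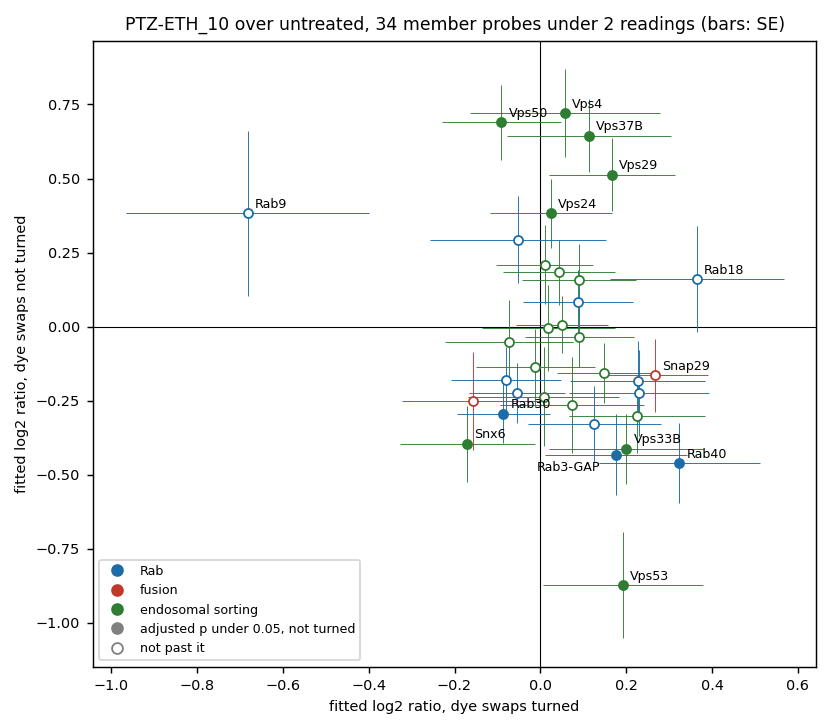
Fitted log2 ratio in PTZ-ETH_10 over untreated for the 34 tested members with the dye swaps turned (x axis) and not turned (y axis), with SE bars. Filled points passed the threshold without turning, and none passed with turning. The 11 filled points lie between -0.17 and 0.32 on the x axis and between -0.87 and 0.72 on the y axis.

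With correction for slide position, correlations between day 10 arrays were lower, and fewer members passed without turning. As deposited, arrays of opposite dye orientation in PTZ-ETH_10 correlated at r from 0.383 to 0.484 over probes, and at r from 0.172 to 0.366 after centring print blocks and 0.0859 to 0.18 after removing the running median. Arrays of the same orientation in that group correlated at r from 0.433 to 0.548, and from 0.233 to 0.287 after removing the running median. Before and after removing it, arrays of opposite orientation correlated at r from -0.0413 to 0.332 and 0.0497 to 0.327 in PTZ-ETH-NF_14 and from -0.225 to 0.277 and -0.127 to 0.296 in PTZ-NF-NF_14. The SD of the medians of the 48 print blocks was 0.223 to 0.372 log2 on the day 10 arrays and 0.0646 to 0.205 on the day 14 arrays. Without turning, 7 members passed after centring print blocks, where 16.6% of probes did, and 3 after removing the running median, where 2.18% did. Vps4 passed in the first of these (0.68 ± 0.12, SE, limma, adjusted p = 0.0103), while Syt12 (-0.72 and -0.65) and Snx17 (-0.45 and -0.42) passed in both. In the reading without turning, where 18.7% of all probes passed as higher and 11.8% as lower at day 10, cell type markers passed as follows: 3 of 7 photoreceptor probes, 4 of 10 fat body probes, 1 of 3 neuron probes and 1 of 5 muscle probes as higher, and 3 of 9 glia probes as lower. With turning, 1 of the 10 fat body probes passed as lower and no probe of the other 4 marker lists did. All 9 glia probes were then below 0 (median -0.29), where 53.7% of all probes were above 0. Of these 9, 4 had an unadjusted p under 0.05 (limma), where 4.58% of all probes were lower at that p. With print blocks centred 1 of the 9 was above 0, and without turning 2 were. The part of slide position, dye or cell type content in the values of the members was not tested.

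Without turning and without a running median removed, Rab30 kept 1 side of 0 on every array. It read -0.42, -0.34, -0.0045 and -0.41 in PTZ-ETH_10, -0.18, -0.14, -0.20 and -0.35 in PTZ-ETH-NF_14 and -0.021, -0.16, -0.23 and -0.13 in PTZ-NF-NF_14. It was the 1 member of the 8 with 12 values that lay on 1 side of 0 on every array, where 2.05% of 2145 such probes were below 0 on all 12. The fitted ratios were -0.29 ± 0.099 (adjusted p = 0.0406), -0.22 ± 0.093 (adjusted p = 0.298) and -0.14 ± 0.095 (adjusted p = 0.727) in the 3 groups in that order (SE, n = 4 arrays each, limma). With turning they were -0.086, 0.055 and 0.044, and 0 of the 8 members lay on 1 side of 0 on all 12 arrays, where 0.373% of probes did. Without turning but with print blocks centred, Rab30 was still below 0 on all 4 arrays of each group. With the running median removed instead, it was below 0 on all 4 arrays only in PTZ-ETH-NF_14.

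Other genes of these routes did not pass with turning either. The lists held neurotransmitter release machinery outside the symbol rule (9 probes tested at day 10), synaptic vesicle endocytosis (8), Rab regulators (8), endosomal sorting genes with other names (13), Golgi and coat genes (8) and exocyst subunits (7), and 0 probes passed in any of the 3 groups; no Rab regulator or Golgi and coat probe could be tested in PTZ-ETH-NF_14. At an unadjusted p under 0.05 were 1 Golgi and coat probe and 1 exocyst probe at day 10, and 1 release machinery probe in each day 14 group. Their median ratios at day 10 were -0.03, 0.047, -0.13, -0.046, -0.069 and 0.096 in the same order. Without turning, 4 of the 9 release machinery probes, 3 of the 8 Rab regulators, 5 of the 8 Golgi and coat probes and 3 of the 13 sorting probes passed as higher at day 10. In the same reading 1 Golgi and coat probe and 2 sorting probes passed as lower, beside 18.7% of all probes higher and 11.8% lower. In the day 14 groups 0 probes of these 6 lists passed without turning.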

How the data were processed

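Each of the 12 arrays was deposited as log2 ratios between its colours. The authors used GenePix Pro 6.0 for quantification and Acuity 4.0 for ratio normalization, and filtered spots on signal, saturation and uniformity, per the series' design text. The log2 scale of the deposited values was read from the values: 100% of the 42 lowest were whole multiples of 0.001 as linear ratios (tolerance 0.05 of a step). The numerator of the dye-swap ratios is not given in the sources used here, and the deposited medians per array lay between -0.62 and 0.03, for a reason not known. The 2 adjacent spots of each of 13824 probes were averaged, 5 spot values at the software ceiling were set to missing, and each array was centred on its median. Genes came from the platform annotation: 7558 probes had 1 gene, 51 several and 6215 none listed, and 7447 were matched to a current symbol in RefSeq. Probes with a value per array ranged from 9106 to 10433 in PTZ-ETH_10, 5077 to 7399 in PTZ-ETH-NF_14 and 6869 to 7433 in PTZ-NF-NF_14. The number of arrays limits the precision.

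For each comparison limma 3.58.1 (lmFit, then eBayes, two-sided, in R 4.3.3) estimated group means plus a dye effect from the 12 arrays, over the probes tested in it, so p-values rest on a spread shared between groups after the dye term. The groups were not equally spread. The SD over all probes was 0.46 to 0.58 log2 on PTZ-ETH_10 arrays, 0.27 to 0.39 in PTZ-ETH-NF_14 and 0.27 to 0.29 in PTZ-NF-NF_14. At most 0.289% of spot values were identical between any pair of arrays. The members, the gene lists and the tests were chosen with earlier results of these data known. Named genes are those past the threshold and, in each group and class and in each difference, the 3 probes with the lowest unadjusted p. Members shown under other counts were chosen after their values were seen. Deviations of same-numbered arrays from group mean and dye term, over 2145 probes, correlated at r from 0.116 to 0.314 between the day 14 groups. They correlated at -0.489 to -0.135 between these groups and PTZ-ETH_10. The fit above has no term for replicate number, which enters only in the replicate block named below. Same-numbered arrays also share their dye orientation, and arrays of different numbers were not compared, so these correlations cannot tell pairing from dye orientation. Alternatives covered the reading of the dye swaps, slide position, centring, scaling, the dye term, a replicate block, the arrays in the fit, array weights, the minimum of arrays and leaving out each array.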

Additional observations from a re-analysis of the deposited data

Results flagged for a closer look

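With the dye swaps turned, 1 array lay far from the others by Dixon's criterion in 3 of 65 sets of 4 replicate values. Chance meets this criterion in about 1 in 20 sets. The criterion was not applied to the values without turning. Rab26, a Rab of secretory and synaptic vesicles, read 0.18 on replicate 3 of PTZ-ETH-NF_14, where its other arrays lay between -0.15 and -0.11. Snx1 probe 2 read -0.69 on replicate 1 of PTZ-ETH_10, where its other arrays lay between 0.21 and 0.28. Vps39, a HOPS subunit, read 0.20 on replicate 4 of PTZ-ETH-NF_14, where its other arrays lay between -0.18 and -0.12. None of these probes passed the threshold in its group.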

How the results depend on the processing

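Without turning the dye swaps, 11 of 34 members passed in PTZ-ETH_10, 7 with print blocks centred as well and 3 with the running median removed. Of all probes 30.5%, 16.6% and 2.18% did. In PTZ-ETH-NF_14 minus PTZ-ETH_10, 2 and 1 of 18 members passed under the first and second of these, where 9.66% and 8.22% of probes did. The running median without turning gave 1 of 22 in PTZ-ETH-NF_14 (Rab30), where 29 of 5135 probes passed as higher and 12 as lower. In PTZ-NF-NF_14, 1 of 30 passed with the arrays of the group alone and 1 with array weights, with the calls over all probes given below. The cause was not tested. All other settings gave 0, including the replicate block in all 5 comparisons and every fit without 1 array (0 to 0). Turning was the setting that reversed called members at day 10: without it Rab40 was at -0.46, Rab3-GAP at -0.43, Vps33B at -0.41, Vps50 at 0.69 and Vps53 at -0.87. The running median was chosen after seeing the data.

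Class medians in PTZ-ETH_10 without turning were -0.20 for Rab genes, -0.21 for fusion genes (-0.23 with print blocks centred, -0.25 with the running median removed) and -0.0205 for sorting genes (-0.051 and -0.0102). The sorting median in PTZ-NF-NF_14 was 0.0304 without turning, 0.0496 with print blocks centred (0.027 without turning) and 0.026 with the running median removed (0.0045 without turning). Without centring, the median of all probes was 0.17, -0.095 and -0.065 in PTZ-ETH_10, PTZ-ETH-NF_14 and PTZ-NF-NF_14. The sorting medians were then 0.22, -0.11 and 0.047 in the same groups and the fusion median of PTZ-ETH-NF_14 was -0.084. Leaving out 1 array at a time gave medians of 0.055 to 0.14 (Rab), 0.048 to 0.36 (fusion) and 0.022 to 0.13 (sorting) in PTZ-ETH_10. In PTZ-ETH-NF_14 they were -0.10 to 0.083, 0.0018 to 0.043 and -0.061 to 0.0024, and in PTZ-NF-NF_14 -0.038 to 0.055, 0.021 to 0.11 and 0.026 to 0.10. The upper fusion value of PTZ-ETH_10 came from leaving out replicate 3. Syt12 had values on replicates 1, 3 and 4 only, so without any 1 of these the fusion median was that of 1 probe, Snap29.

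Over all probes, the calls in PTZ-NF-NF_14 were 68 higher and 207 lower with the arrays of the group alone, 28 and 94 with array weights and 15 and 52 after scaling the spread of the arrays, against 0. In PTZ-ETH_10 they were 12 higher and 9 lower, 7 and 5 with the replicate block, 5 and 3 without the dye term, 1 and 0 with the group alone and 0 and 0 with scaling.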
